A study of Caenorhabditis briggsae with 10 samples.

Results

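A difference in expression between 2 strains can lie in the gene copy itself or in the cellular setting that acts on it, and a hybrid that carries both copies separates these parts. Here the difference between HK104, a strain of Caenorhabditis briggsae of temperate origin, and AF16, a strain of tropical origin, was divided in this way in worms that had been in the cold. Members were all genes with at least 20 reads assigned to either allele in the cold hybrid library, 8557 of 23175 genes. The minimum uses only the number of assigned reads, not their ratio. The parental fit tested 8554 of them. The other 3, with 25 to 27 assigned reads, held at most 9 counts in any parental library and enter no partition.

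The series holds 10 RNA-seq samples of whole worms. The groups used were HK104 after cold (2 libraries), AF16 after cold (2 libraries) and the AF16/HK104 hybrid after cold (1 library), with the matching uncooled groups of 2, 2 and 1 libraries beside them. All were labelled wild type, had been synchronised as mid or late L4 larvae, and grew at 20 °C for 24 hours. Cold worms then spent 60 hours at 4 °C, whereas control worms were collected at the start of that time, so that no group is an uncooled match in time. The labels do not give the sex of the hybrid worms, which strain was the mother, or whether replicates were separate cultures, so p-values measure the spread between these libraries.

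In the nuclei of a hybrid, both alleles of a gene meet the same transcription factors, signals and temperature. A difference between alleles is therefore read as acting in cis, through the promoter, an enhancer or the stability of the transcript itself. A difference between strains that is not seen between alleles is read as acting in trans, through a diffusible product of another gene. Whole worms of 2 strains can also differ in stage, germline content or state of health, and these differences fall into the trans part as well. Within this design they cannot be told apart from a diffusible factor. In bulk samples, fewer cells of a type and less RNA per cell cannot be told apart either.

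For each gene the strain ratio was the log2 of HK104 over AF16 from the parental cold libraries, and the allele ratio the log2 of HK104 over AF16 reads of the hybrid cold library, with 0.5 added to each count. The remainder is the strain ratio minus the allele ratio, and is read as the trans part. It also holds, with opposite sign, any error of the allele ratio, from counting or from the assignment of reads to alleles. The allelic share is the allele ratio divided by the strain ratio. It is 1 where the alleles differ as much as the strains and 0 where the alleles are equal. With 1 hybrid library, allele ratios, remainders and shares are descriptions of that library and carry no test. Intervals on allele percentages are exact Clopper-Pearson 95% intervals and cover counting error only.

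The 4 parental cold libraries held 15360979 to 18362210 counts, and the hybrid cold library held 6008659 assigned reads, of which members took 99.4%. A member had a median of 266 assigned reads, with an interquartile range of 66 to 781. Cold replicates of the same strain differed by a median of 0.31 in HK104 and 0.49 in AF16 on the log2 scale over tested members. The gene IDs are WormBase IDs, and 0 of 23175 matched the RefSeq gene table of the CB4 assembly by any column, so no gene names, families, sequences or coordinates are given.

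Most members were close to balance in both measurements. The allele ratio lay within 2-fold at 6828 tested members (79.8%), the strain ratio at 7437 (86.9%) and the remainder at 6512 (76.1%). The median allele ratio was -0.03, with an interquartile range of -0.38 to 0.26, and the median strain ratio was 0.09, with an interquartile range of -0.15 to 0.34. The strain ratio had a median of 0.06 over all 13503 tested genes, and of -0.07 with DESeq2 size factors. Over the 8010 members with less than 95% of reads from 1 allele, allele and strain ratios correlated across genes with r = 0.370 and rho = 0.306. The genes share libraries and are not replicates, so this is a description. The SD across those members was 0.84 for the allele ratio, 0.83 for the strain ratio and 0.94 for the remainder.

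**Figure D1:**
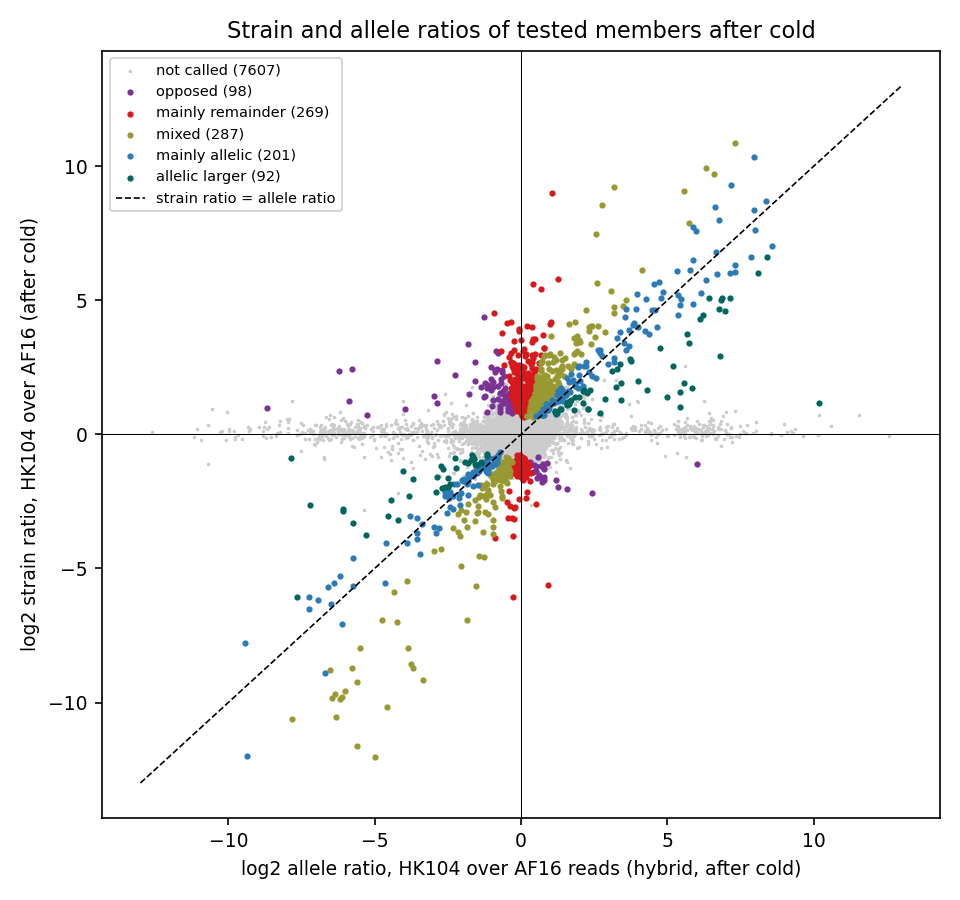
Strain ratio (vertical axis) against allele ratio (horizontal axis) after cold, both log2 of HK104 over AF16, for 8554 tested members. Coloured points are the 947 genes called between the strains, by class of allelic share. Most lie near or between the vertical axis (equal alleles) and the dashed line (alleles as far apart as strains). The 98 opposed members lie across the vertical axis, and the 92 allelic larger members lie past the dashed line. Grey points along the horizontal axis have unequal alleles and like strain levels.

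At an FDR below 0.05 (edgeR quasi-likelihood test, Benjamini-Hochberg adjustment over all tested genes), 947 of 8554 tested members (11.1%) differed between HK104 and AF16 after cold, against 12.7% of all 13503 tested genes. HK104 was higher at 616 members (7.20%) and lower at 331 (3.87%), against 7.08% and 5.58% of all tested genes. The excess of genes higher in HK104, 65.0% of the calls among members, was 55.7% with DESeq2 size factors and 53.7% with the DESeq2 test. It was 41.9% without the second AF16 cold library and 77.4% without the second HK104 cold library. Without the first HK104 cold library, 473 members were called.

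Among the 947 called members, the alleles differed in the direction of the strains at 731 (77.2%), against 4321 of the 7607 members without a call (56.8%). The median allelic share was 0.44, with an interquartile range of 0.05 to 0.87. It ranged from 0.42 to 0.50 over the 4 pairings of 1 HK104 with 1 AF16 cold library. The counting interval of the allele percentage excluded equality at 579 called members (61.1%), against 3682 of all tested members (43.0%). The remainder had the same sign in all 4 pairings of an HK104 with an AF16 cold library, at both ends of the counting interval, at 421 called members (44.5%) and 1544 members without a call (20.3%).

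The allelic share divided the called members into 5 classes. In 201 (21.2%) the share lay within 0.25 of 1, so that the strain difference was mainly allelic. In 269 (28.4%) it lay within 0.25 of 0, so that the difference was mainly in the remainder. A further 287 (30.3%) lay between 0.25 and 0.75 and are called mixed. In 92 (9.71%) the share was more than 0.25 above 1. In 98 (10.3%) it was below -0.25, so that the allele ratio had the opposite sign to the strain ratio. The counts for mainly allelic and mainly remainder members were 118 and 123 without the first HK104 cold library.

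A set of called members had almost no counts in a strain. At 76 of them every cold library of a strain held at most 3 counts, 39 in HK104 and 37 in AF16. The allele ratio had the direction of the strains at 75 of the 76, and at 60 at least 95% of the hybrid's reads were those of the more highly expressing strain's copy. For these genes the fitted strain ratio rests on very few counts or on the small counts added. So does the allele ratio where an allele has few or no reads. Their allelic share thus has no fixed size or only a rough one. They supply 36 of the mixed, 33 of the mainly allelic, 4 of the allelic larger and 3 of the mainly remainder members. Without them the median allelic share was 0.38, and 168 members were mainly allelic and 266 mainly in the remainder.

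The named genes were, in each class, the 2 highest and 2 lowest by size among members with at least 50 assigned reads. In the mainly allelic class all 4 were of this all-or-none kind. WBGene00032305 had 10.3 and 9.10 CPM (counts scaled to library size) in HK104 and 0 counts in both AF16 libraries, at least 56.4-fold higher in HK104 (adjusted p = 0.000113, edgeR). All 123 of its hybrid reads came from the HK104 allele, and a count of 0, read as at most 3 reads of the total, allows up to 2.44% from AF16, with an upper end of the exact interval at 2.95%. WBGene00087525 had 5.50 and 3.76 CPM in HK104 and 0 counts in AF16, at least 27.0-fold higher (adjusted p = 0.000356, edgeR), with 72 HK104 and 0 AF16 reads in the hybrid. Both genes were read from the same allele alone in the control hybrid, at 52 and 29 reads.

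WBGene00271854 had 0 counts in both HK104 libraries and 35.5 and 25.7 CPM in AF16, at least 160.5-fold lower in HK104 (adjusted p = 4.17e-05, edgeR). Its 329 hybrid reads were all from the AF16 allele, which allows up to 0.912% from HK104 by the limit of 3 reads and 1.11% by the exact interval. WBGene00031892 had 0 counts in HK104 and 4.44 and 2.76 CPM in AF16, at least 18.9-fold lower in HK104 (adjusted p = 0.00151, edgeR), with 0 HK104 and 52 AF16 reads. At these 4 genes the level of each strain and the reads of its own allele were present or absent together.

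The same order without genes at 3 counts or with 95% of reads from 1 allele, a choice made after their values were seen, gave 4 genes read from both copies. WBGene00024619 had 44.4 and 32.9 CPM in HK104 and 1.71 and 1.32 CPM in AF16, a strain ratio of 4.66 ± 0.37 (SE, adjusted p = 6.25e-05, edgeR). In the hybrid 158 reads came from the HK104 and 10 from the AF16 allele, 94.0% HK104 (89.3 to 97.1), an allele ratio of 3.92. WBGene00040861 had 22.9 and 26.6 CPM in HK104 and 0.968 and 0.978 CPM in AF16, a strain ratio of 4.66 ± 0.29 (SE, adjusted p = 2.38e-05, edgeR), and 163 HK104 against 13 AF16 reads, an allele ratio of 3.60.

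In the other direction, WBGene00038719 had 3.67 and 4.49 CPM in HK104 and 73.2 and 50.1 CPM in AF16, a strain ratio of -3.92 ± 0.27 (SE, adjusted p = 4.17e-05, edgeR). Its alleles gave 61 HK104 and 727 AF16 reads, 7.74% HK104 (5.97 to 9.83), an allele ratio of -3.56 and an allelic share of 0.91. WBGene00042505 had 0.734 and 0.264 CPM in HK104 and 15.5 and 6.96 CPM in AF16, a strain ratio of -4.45 ± 0.51 (SE, adjusted p = 0.000447, edgeR), with 4 HK104 and 49 AF16 reads in the hybrid. At all 4 genes the 2 strains' libraries did not overlap, and the hybrid copies kept the order of the strains. The rule for named genes and the class limits require both.

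The mainly remainder class is the reverse case by its limits, and its named genes had strains far apart and alleles much closer together. WBGene00031730 had 26.2 and 21.0 CPM in HK104 and 0.740 and 0.345 CPM in AF16, a strain ratio of 5.42 ± 0.40 (SE, adjusted p = 4.39e-05, edgeR). Its hybrid reads were 32 from HK104 and 20 from AF16, 61.5% HK104 (47.0 to 74.7), which leaves a remainder of 4.76. WBGene00041331 had 8.56 and 6.0 CPM in HK104 and 0.228 and 0.0575 CPM in AF16, a strain ratio of 5.60 ± 0.56 (SE, adjusted p = 0.000214, edgeR), and 31 HK104 against 23 AF16 reads, a remainder of 5.18. Neither interval of the allele percentage excludes equal alleles. In the control hybrid WBGene00041331 had 13 HK104 reads and 0 AF16 reads, so its balance after cold was not seen there at that depth.

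Lower in HK104, WBGene00036853 had 2 and 1 counts in HK104 (0.122 and 0.0660 CPM) and 5.64 and 4.54 CPM in AF16. The ratio of summed counts was 53.5-fold, with a counting interval of 18.0 to 261.9 (adjusted p = 0.000108, edgeR). In the hybrid the HK104 allele was the more abundant, with 121 reads against 64 from AF16, 65.4% HK104 (58.1 to 72.2). WBGene00025860 had 4 and 2 counts in HK104 (0.245 and 0.132 CPM) and 16.8 and 9.66 CPM in AF16, a strain ratio of -6.07 ± 0.46 (SE, adjusted p = 4.98e-05, edgeR). Its hybrid reads were 34 from HK104 and 41 from AF16, 45.3% HK104 (33.8 to 57.2), a remainder of -5.80. At both genes HK104 worms held almost no transcript after cold, whereas the HK104 copy was read in the hybrid.

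**Figure D2:**
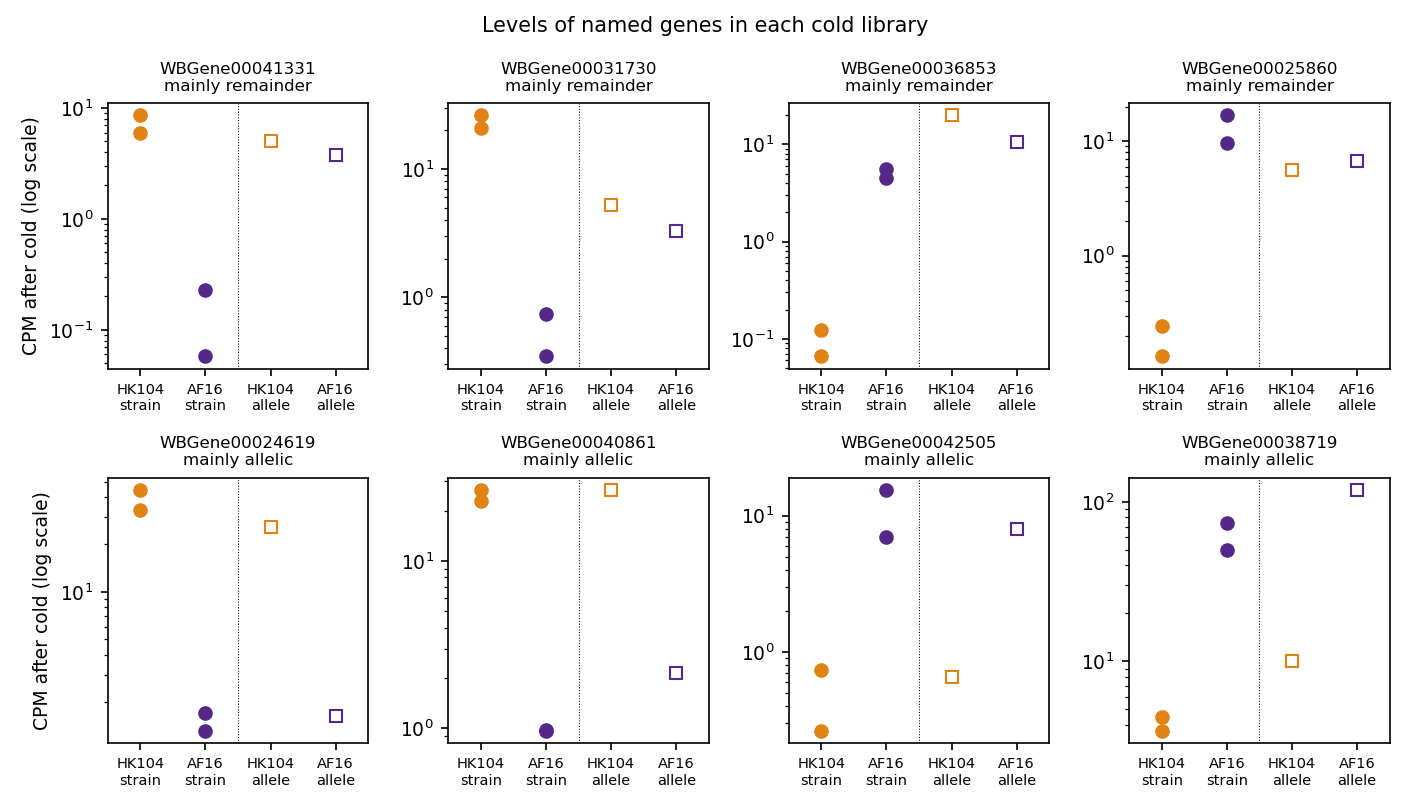
Levels after cold of 4 mainly remainder genes (top) and 4 mainly allelic genes (bottom), in CPM on log axes, with filled circles for the 2 libraries of each strain and open squares for the alleles of the 1 hybrid library. Strain and allele CPM have different totals and are not on the same scale. Alleles lie apart as the strains do in the bottom row, as at WBGene00038719 with 61 HK104 and 727 AF16 reads, and close together in the top row. The class limits set this contrast.

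In the mixed class the rule again named all-or-none genes. WBGene00025499 had 10.0 and 17.7 CPM in HK104 and 0 counts in AF16, at least 80.9-fold higher (adjusted p = 0.000153, edgeR), with 79 HK104 and 0 AF16 reads. WBGene00026423 had 4.83 and 3.23 CPM in HK104 and 0 counts in AF16, at least 23.5-fold higher (adjusted p = 0.000585, edgeR), with 70 HK104 reads and 1 AF16 read. Their placing among the mixed genes rests on the small counts added, as stated above.

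WBGene00036783 had 0 counts in HK104 and 44.1 and 18.6 CPM in AF16, at least 164.6-fold lower in HK104 (adjusted p = 0.000197, edgeR), yet 4 of its 148 hybrid reads were assigned to HK104. WBGene00088672 had 0 counts in HK104 and 16.1 and 7.02 CPM in AF16 after cold, at least 60.7-fold lower in HK104 (adjusted p = 0.000613, edgeR). All 113 of its cold hybrid reads came from AF16, and the control hybrid had 0 reads of either allele.

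In the allelic larger class the alleles differed more than the strains and in the same direction, which the class limits require. WBGene00033211 had 11.6 and 12.3 CPM in HK104 and 0.171 and 0.0575 CPM in AF16 (strain ratio 6.62 ± 0.50, SE, adjusted p = 4.98e-05, edgeR), and 168 HK104 against 0 AF16 reads. WBGene00036488 had 15.7 and 18.5 CPM in HK104 and 0.342 and 0.172 CPM in AF16 (strain ratio 6.01 ± 0.44, SE, adjusted p = 4.39e-05, edgeR), and 135 against 0 reads. WBGene00040198 had 0.0611 and 0.330 CPM in HK104 and 14.9 and 11.9 CPM in AF16 (strain ratio -6.08 ± 0.56, SE, adjusted p = 0.000217, edgeR), with 0 HK104 and 101 AF16 reads. An allele with 0 reads makes the size of the allele ratio depend on the count added. WBGene00027069, with 0.611 and 0.396 CPM in HK104 and 3.82 and 10.1 CPM in AF16 (strain ratio -3.76 ± 0.78, SE, adjusted p = 0.0112, edgeR), had 1 HK104 and 59 AF16 reads. Its call was lost when either HK104 cold library was left out.

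The opposed class held genes whose allele ratio went against the strain ratio. The counting interval of the allele percentage excluded equal alleles at 52 of the 98. WBGene00025438 had 108.8 and 88.9 CPM in HK104 and 49.1 and 35.1 CPM in AF16, a strain ratio of 1.23 ± 0.22 (SE, adjusted p = 0.00475, edgeR), but 9 HK104 and 562 AF16 reads in the hybrid. WBGene00040899 had 69.1 and 68.1 CPM in HK104 and 40.6 and 28.2 CPM in AF16 (adjusted p = 0.0147, edgeR), but 0 HK104 and 204 AF16 reads. Its call was lost in 4 of the refits, with total counts only, with the cold libraries alone, and without the second AF16 or the first HK104 cold library. That of WBGene00025438 was lost without the first HK104 cold library. Both genes had at least 95% of their hybrid reads from the AF16 allele. Only 6 of the 98 opposed members had so large a part of their reads from a single allele, so these genes are not typical of the class. The rule that assigns hybrid reads to alleles is not given in the sources used here, and its part in these allele ratios was not tested.

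WBGene00039645 was lower in HK104, at 1.83 and 0.924 CPM in HK104 and 7.69 and 5.06 CPM in AF16 (strain ratio -2.20 ± 0.37, SE, adjusted p = 0.00361, edgeR), with 67 HK104 and 12 AF16 reads in the cold hybrid. In the control hybrid the same gene had 133 HK104 and 125 AF16 reads. WBGene00026031 had 3.0 and 4.09 CPM in HK104 and 12.4 and 8.86 CPM in AF16 (adjusted p = 0.0268, edgeR), with 42 HK104 and 24 AF16 reads. Its call was lost without the first AF16, the first HK104 or the second HK104 cold library.

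The classes differed in direction. HK104 was higher at 209 of the 269 mainly remainder members (77.7%) and 75 of the 98 opposed members (76.5%), against 113 of 201 mainly allelic members (56.2%) and 164 of 287 mixed members (57.1%). This split moved with the libraries and the scaling. For the mainly remainder class it was 66.3% with DESeq2 size factors, 45.2% without the second AF16 cold library, 61.0% without the first HK104 cold library and 90.0% without the second. For the mainly allelic class the same fits gave 49.5%, 47.7%, 55.1% and 65.6%. Of the 209 mainly remainder members higher in HK104, 172 had a higher level in the first than in the second HK104 cold library, by a median of 0.40 on the log2 scale, beside 77 of the 113 mainly allelic ones with a median of 0.15. The part of this spread between libraries in the split was not tested.

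The classes were also divided by the size of the strain difference. Among the 131 called members whose absolute strain ratio was at least 4, the median allelic share was 0.76 and 43.5% were mainly allelic. Among the 269 with an absolute ratio from 2 to 4 it was 0.39, among the 439 from 1 to 2 it was 0.33 and among the 108 below 1 it was 0.37, with 18.6%, 16.6% and 19.4% mainly allelic, so the share had no steady order below a ratio of 4. Of the 131, 73 had a strain at 3 counts or fewer and thus a share of no fixed or only a rough size. Over the other 58 the median was 0.82 and 43.1% were mainly allelic, a comparison added after the values were seen. The depth of the hybrid went less with the share, with medians of 0.42, 0.44, 0.50 and 0.43 for members below 50, from 50 to below 200, from 200 to below 1000 and at or above 1000 assigned reads. The median width of the counting interval over those 4 steps was 2.53, 1.40, 0.62 and 0.31 on the log2 scale, so that a single gene of the first step is placed only roughly.

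Called members were next set beside their state without cold, where the parental and hybrid libraries are different ones. Without cold, 475 tested members (5.55%) differed between the strains, against 7.01% of all tested genes. Of the 947 members called after cold, 387 were also called without cold and 560 were not. The median allelic share after cold was 0.76 in the 387 and 0.21 in the 560. Of the 387, 34.6% were mainly allelic and 11.1% mainly in the remainder, against 12.0% and 40.4% of the 560. The median absolute strain ratio after cold was 2.61 in the 387 and 1.52 in the 560. The split used the strain ratios of both conditions, and the cold one also divides the share. The choice thus fixes part of these contrasts, also within steps of the strain ratio. Within absolute strain ratios from 1 to 2 the median share was 0.77 over 126 genes called in both and 0.22 over 313 called after cold alone, and within ratios from 2 to 4 it was 0.65 over 125 and 0.13 over 144.

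**Figure D3:**
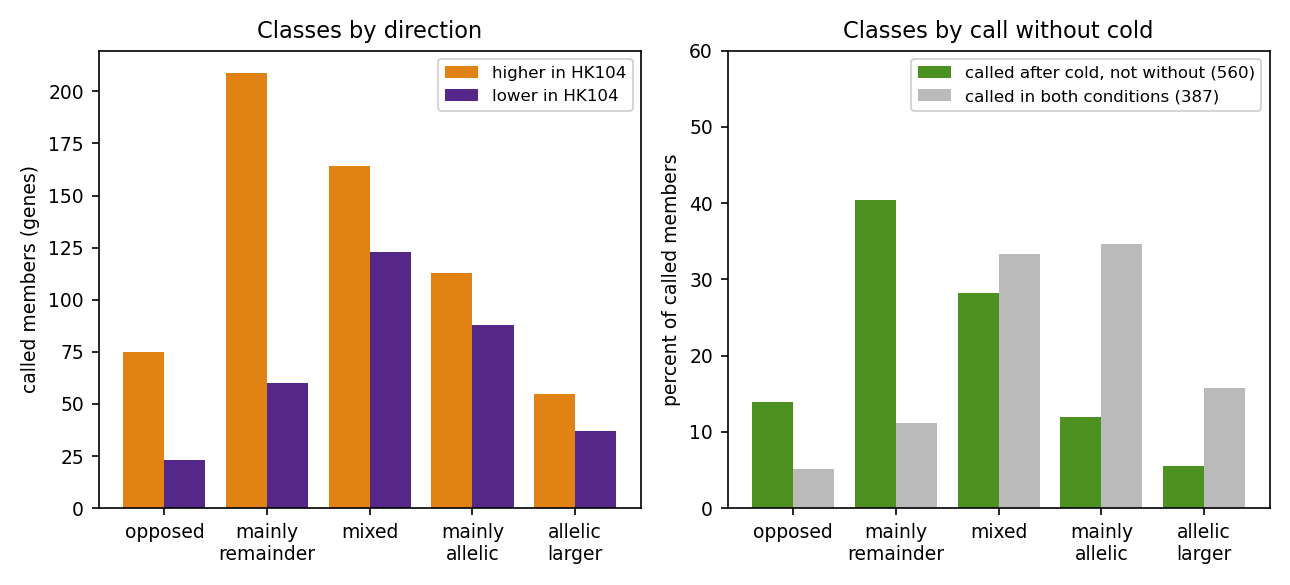
Left, called members in each class of allelic share, with HK104 higher or lower (numbers of genes). Right, share of members in each class, in percent, for the 560 called after cold and not without cold and the 387 called in both conditions. Mainly remainder members make up 40.4% of the first set and 11.1% of the second. The split used the cold strain ratio, which also divides the share and so fixes part of this contrast.

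A call raises the strain ratio that is then divided, since genes pass more easily where the ratio happens to be large. Choosing members by their call between the control strains takes the cold strain ratio out of the choice. The cold libraries still enter the scaling, the filter and the spread of the shared fit, and membership rests on the cold hybrid library. The 475 members chosen so had a median allelic share after cold of 0.77, with 154 mainly allelic and 55 mainly in the remainder. They are genes that differ in both settings or in the control alone, and their share describes that set, not the genes that diverge after cold.

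A call after cold and none without it does not show a change with cold. Tested in the same fit, the interaction of strain and cold passed an FDR of 0.05 at 49 members (0.573%), against 0.496% of all tested genes, and 46 of them were among the 947. By class they were 28 mainly remainder, 10 mixed, 6 opposed, 1 mainly allelic and 1 allelic larger members, and 43 of the 46 had the larger log2 response in HK104. This count rests on the scaling and on single libraries. With total counts only, edgeR called 0 members, with 373 at an unadjusted p below 0.05. It called 0 without the first HK104 cold library (359 unadjusted) and 0 without the second HK104 control library (318 unadjusted), while the DESeq2 test called 115. It called 1 without the second AF16 cold library, 9 and 3 without the first and second AF16 control libraries, and 5 without the first HK104 control library.

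Of the 560 genes, 473 also reached 20 assigned reads in the control hybrid, and their ratios were taken toward the strain that was higher after cold. The median strain ratio was 1.43 after cold and 0.40 without, which the choice of these genes fixes in part. The median allele ratio, which the choice did not use, was 0.31 after cold and 0.16 without cold. For the 354 such genes called in both conditions, the median strain ratio was 2.43 after cold and 2.22 without, and the median allele ratio 1.83 after cold and 1.62 without. Each condition has 1 hybrid library, so the difference of the allele ratios between conditions was not tested.

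The response of each hybrid allele to cold was set beside those of the strains. Members with reads from nearly 1 allele or with a strain at 3 counts or fewer were left out of these medians. At 181 mainly remainder members higher in HK104, the median log2 change from control to cold was 0.48 in the HK104 strain and -0.79 in the AF16 strain. In the hybrid it was 0.01 for the HK104 allele and 0.03 for the AF16 allele, so the medians of both copies lay between those of the strains and close to each other. The class was chosen by strain and allele ratios after cold, which enter these responses. That choice fixes in part that the strain responses lie apart and the allele responses close together. At 53 mainly remainder members lower in HK104, the medians were -0.35 in the HK104 strain and -0.21 in the AF16 strain, and 0.02 for the HK104 and -0.12 for the AF16 allele, both outside the strain medians. The interquartile ranges across genes overlapped between all 4 measures in both sets.

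In the mainly allelic members the median responses of the strains lay closer together, and those of the alleles farther apart, than in the mainly remainder members higher in HK104. The class limits on the ratios after cold fix part of this contrast too. At 69 mainly allelic members higher in HK104, the median change was 0.10 in the HK104 strain and -0.14 in the AF16 strain, and 0.10 for the HK104 and -0.17 for the AF16 allele. At 65 lower in HK104, it was 0.09 in the HK104 strain and 0.13 in the AF16 strain, and -0.12 for the HK104 and 0.17 for the AF16 allele. Over all 7631 members under the same limits the medians were 0.13, 0.10, 0.09 and 0.08 for HK104 strain, HK104 allele, AF16 allele and AF16 strain, so the 4 scales were centred within 0.1 of each other.

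**Figure D4:**
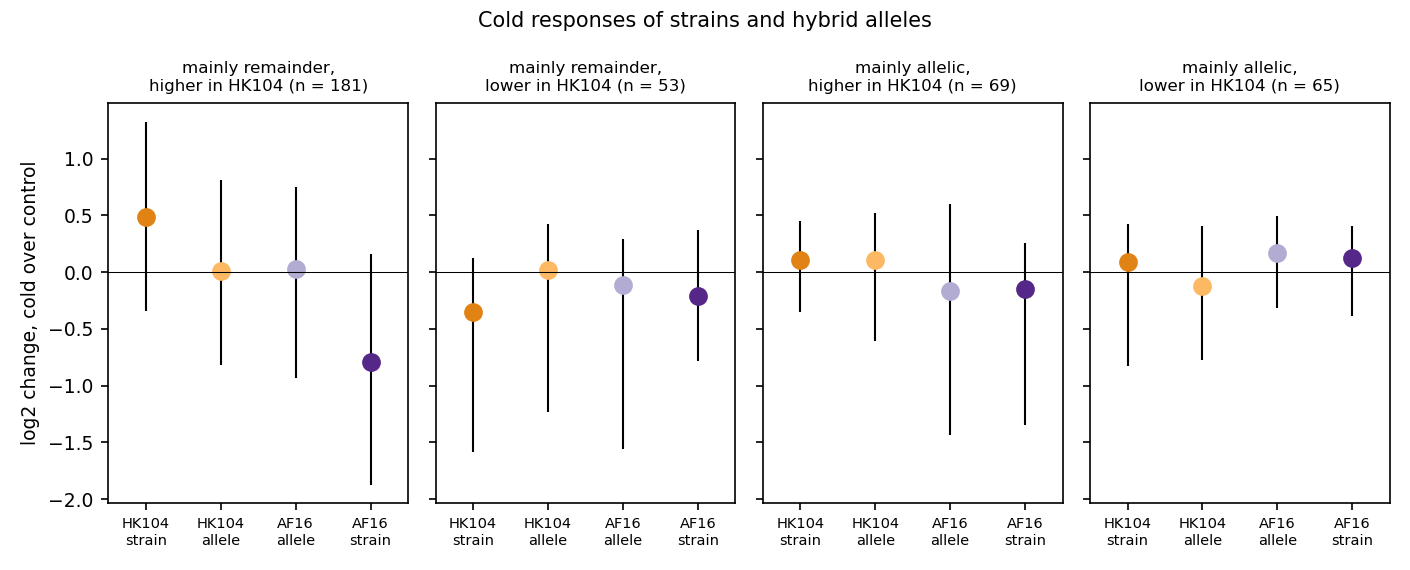
Median log2 change from control to cold (points) with the interquartile range across genes (bars) for the HK104 strain, the HK104 allele, the AF16 allele and the AF16 strain. In mainly remainder members higher in HK104 the strains stand at 0.48 and -0.79 and the alleles at 0.01 and 0.03. The bars show spread between genes, not between replicates. The classes were chosen by ratios after cold, which enter these changes.

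Unequal alleles without a strain difference formed the reverse case. At 979 tested members (11.4%) the alleles differed at least 2-fold, with a counting interval that excludes equality, while the strains were not called and lay within 0.5 of each other on the log2 scale. The HK104 allele was higher at 362 and the AF16 allele at 617 of them. In the control hybrid, 695 of the 892 with enough reads were also at least 2-fold unequal in the same direction. At 905 of the 979 the strains also lay within 0.5 of each other without cold. Near-complete imbalance, at least 95% of reads from 1 allele, accounted for 379 of the 979.

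The 4 genes the rule named here were all of this kind. WBGene00039601 had 11274 and 14088 counts in the HK104 cold libraries and 12691 and 14287 in the AF16 ones, a strain ratio of 0.07 ± 0.23 (SE). In the hybrid 0 reads came from HK104 and 3152 from AF16 after cold, and 0 and 3228 without cold. WBGene00025294 had 17100 and 17675 counts in HK104 and 22543 and 17473 in AF16, a strain ratio of -0.05 ± 0.22 (SE), and 3060 HK104 against 0 AF16 reads. Both strains thus held abundant transcript of genes for which the hybrid had reads assigned to a single allele.

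WBGene00270600 had 1242 and 1603 counts in HK104 and 1209 and 1333 in AF16, with 765 HK104 and 0 AF16 reads in the hybrid. WBGene00028298 had 1363 and 1444 counts in HK104 and 1963 and 1361 in AF16, with 0 HK104 and 1151 AF16 reads. Among members with reads from both copies, chosen after their values were seen, WBGene00033657 had 16877 and 18357 counts in HK104 and 18013 and 23411 in AF16, with 240 HK104 and 4500 AF16 reads, and WBGene00031328 had 1386 and 789 counts in HK104 and 1333 and 787 in AF16, with 66 HK104 and 4 AF16 reads. The other members of that choice were WBGene00033040, with 251.9 and 202.6 CPM in HK104 and 222.7 and 166.0 CPM in AF16 and 49 HK104 against 3 AF16 reads, and WBGene00038315, with 78.3 and 74.0 CPM in HK104 and 110.0 and 82.6 CPM in AF16 and 30 against 557 reads. The CPM of the 2 strains overlapped at each of these 8 genes except WBGene00038315, where both HK104 libraries were lower and the strain ratio was -0.34 ± 0.20 (SE).

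Near-complete imbalance was found at 544 tested members, 236 with reads from HK104 and 308 with reads from AF16. The strains differed at 118 of them (21.7%), against 12.7% of all tested genes, and 112 of the 118 had the direction of the allele. At the other 426 the median absolute strain ratio was 0.17, and 417 lay within 2-fold between the strains. Of the 462 with enough reads in the control hybrid, 394 had near-complete reads from the same allele there. Those with AF16 reads had a median level of 114.9 CPM in HK104 and 110.6 CPM in AF16, and those with HK104 reads 135.3 CPM in HK104 and 110.6 CPM in AF16. The near-complete members thus held a set whose strains differed in the direction of the allele and a larger set in which only the reads assigned in the hybrid were one-sided. The rule of assignment of hybrid reads is not given in the sources used here, and its part in the second set was not tested. Left out, these members lower the median allelic share of the called members to 0.34, with 147 mainly allelic and 269 mainly in the remainder.

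**Figure D5:**
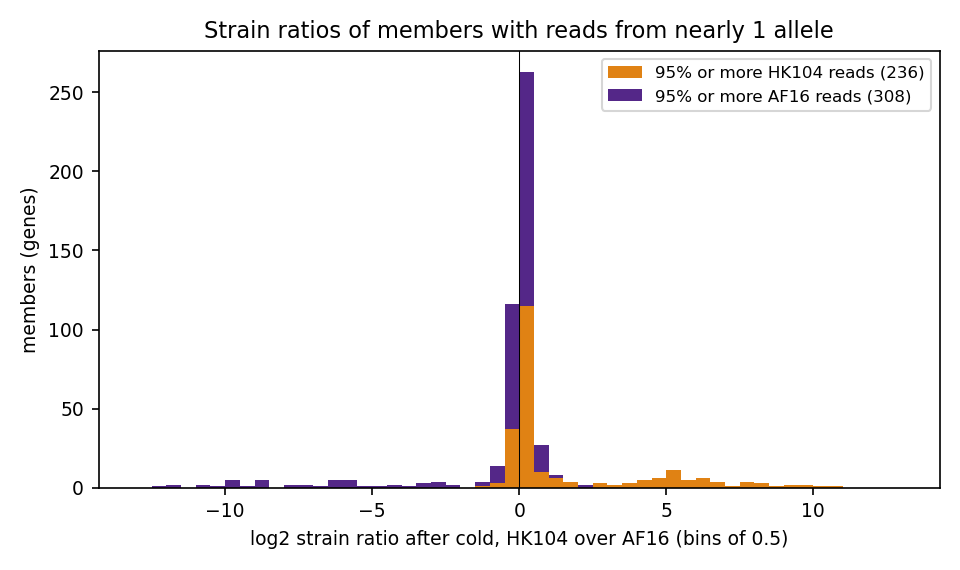
Strain ratio after cold (log2 of HK104 over AF16, bins of 0.5) for the 544 tested members with at least 95% of hybrid reads from 1 allele, stacked by that allele. Most lie near 0, where the strains have like levels, and the tails, to the right for HK104 reads and to the left for AF16 reads, are genes that differ between the strains in the same direction.

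The division was also read from the alleles to the strains. Between equality and near-completeness, 1102 members had alleles at least 2-fold apart beyond counting error. The strains had the same direction at 752 of them (68.2%), and 291 (26.4%) were called, 271 of these in the direction of the alleles. The median of the strain ratio over the allele ratio was 0.13, at a median absolute allele ratio of 1.65. Restricting to the 627 that were at least 2-fold unequal in the same direction in the control hybrid left a median of 0.09, with 424 (67.6%) in the direction of the strains and 177 (28.2%) called. Choosing by a large allele ratio raises that ratio in the same way as a call raises the strain ratio, so the shares of 0.44 and 0.13 start from different sets and do not measure one quantity.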

How the data were processed

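Members and gene choices were made with earlier results of these data known. For the 8 parental libraries the authors deposited counts of each gene that are whole and not normalized, and counts per gene and allele for 2 hybrid libraries. Per the submitters' processing notes, cutadapt, HISAT2 2.2.0, HTSeq 0.11.1 and edgeR were used. The genome build, the use of strand and the rule that assigns reads to alleles are not given in the sources used here, so reads of overlapping or near-identical genes may be split. Hybrid columns were read as alleles from the table's name and column names.

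The 8 parental libraries were fitted with edgeR 4.0.16 (R 4.3.3), TMM scaling, filterByExpr with its minimum count of 10 (13503 genes), 1 coefficient per group and the quasi-likelihood F test. An FDR below 0.05, Benjamini-Hochberg over all tested genes, was a call. Standard errors are the absolute log2 ratio over the square root of F. CPM are scaled by TMM. The allele responses use TMM over summed alleles of the 2 hybrid libraries. Folds against groups at 0 counts use 3 counts per library. Named genes had at least 50 assigned reads and the same sign in all 4 pairings of cold libraries: in each class the 2 highest and 2 lowest strain ratios (mainly remainder and opposed: remainders; unequal alleles: allele ratios, with no condition on the pairings). Gene lists and markers planned by symbol were not run, as 0 IDs have symbols. The scripts were tested on simulated data. DESeq2 1.42.0 was an alternative.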

Additional observations from a re-analysis of the deposited data

Results flagged for a closer look

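Among tested members, 49 had a cold response that differed between HK104 and AF16 by the test of that difference (edgeR, FDR below 0.05), and 2 of the named genes were among them. At WBGene00031730 the log2 response was larger in HK104 by 4.29 ± 0.60 (SE, adjusted p = 0.0228, edgeR), and the hybrid alleles had 32 HK104 and 20 AF16 reads after cold and 6 and 13 reads without cold. At WBGene00036853 it was smaller in HK104, at -4.21 ± 0.61 (SE, adjusted p = 0.0228, edgeR), which rests on 2 and 1 counts in the HK104 cold libraries, while the hybrid had 121 HK104 and 64 AF16 reads after cold and 73 and 65 without cold. With total counts only, neither gene passed, as 0 members did. The calls of such members also rest on single libraries, as stated above. No group held enough samples to look for a library far from the others.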

How the results depend on the processing

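The direction of the strain ratio at each named called gene was kept in every refit, and its call was kept in 350 pairs of gene and refit and lost in 10, which stand beside the genes. The 947 calls among members became 447 at a minimum of 100 assigned reads, 475 when chosen without cold, 463 when chosen so with DESeq2 size factors (a setting added after seeing the data), and 473 to 1063 without 1 library. Mainly allelic members numbered 109 at the minimum of 100 and 118 to 172 without 1 library. Mainly remainder members numbered 139 at the minimum of 100, 55 and 58 when chosen without cold with TMM and DESeq2 size factors, and 123 to 344 without 1 library. The median allelic share of 0.44 became 0.474 with DESeq2 size factors, 0.509 with total counts only, 0.515 from ratios of mean CPM, 0.408 with a pseudocount of 2, 0.342 without near-complete members, 0.770 and 0.764 when chosen without cold with TMM and DESeq2 size factors, and 0.315 to 0.542 without 1 library. Added after seeing the data, leaving out genes with a strain at 3 counts or fewer gave 0.378, and leaving out near-complete members as well also gave 0.342. Genes with unequal alleles and like strains numbered 507 at the minimum of 100 and 600 without near-complete members, also with both kinds left out. Members with a strain-dependent response numbered 32 and 25 at minimums of 50 and 100, 115 with the DESeq2 test, 94 without the filter, 0 with total counts only (373 at an unadjusted p below 0.05, edgeR) and 0 to 70 without 1 library. The cause of these shifts was not tested, except that higher minimums and left-out genes reduce the genes counted. Replicate numbers are shared between strains, but nothing in the labels says that they mark a shared batch. Differences between the first and second cold libraries correlated between HK104 and AF16 with r = 0.277 across genes, and other pairs of groups with 0.0156 to 0.207. With the replicate number as a block, 1156 members were called, the median share was 0.394, and 100 members had a strain-dependent response. Below 50 assigned reads the counting interval of a called member's allele ratio had a median width of 2.53 log2 units, and allele ratios have no replicate.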

Other observations

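Called members were also divided by their mean level over the 4 parental cold libraries. The 26 below 1 CPM had a median allelic share of 0.78, the 473 from 1 to 10 CPM of 0.47, the 394 from 10 to 100 CPM of 0.37 and the 54 at or above 100 CPM of 0.26. Mainly allelic members made up 42.3%, 20.9%, 21.8% and 9.26% of these 4 sets, and mainly remainder members 11.5%, 26.0%, 30.7% and 40.7%. Without members that have a strain at 3 counts or fewer, a choice made after the values were seen, the 4 medians were 0.61, 0.41, 0.36 and 0.26, over 13, 416, 388 and 54 members. The median width of the counting interval of the allele ratio over the 4 sets was 3.65, 2.07, 0.81 and 0.33 log2 units, and its part in this order was not tested.

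Allele ratios of the 2 hybrid libraries resembled each other. Over 4549 members with at least 200 assigned reads after cold, at least 20 without cold and less than 95% from 1 allele, they correlated across genes with r = 0.852, and the strain ratios of the same genes with and without cold with r = 0.747. Without the minimum of 200 reads the 2 values were 0.734 and 0.735, over 7637 members. Over all 8099 members with at least 20 reads in both libraries they were 0.914 and 0.86. The gap between the 2 values thus depended on the genes chosen. The genes share libraries, so these values are descriptions.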
